A study of Mus musculus with 6 samples.

Results

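The 49 genes described here encode proteins that copy chromosomal DNA or supply its building blocks. They were selected by gene symbol, with earlier results of these data known. All 49 were found among the 20036 genes of the table, each once, and all 49 passed the filter on low counts. RNA was sequenced from macrophages made from THP-1, an established human acute monocytic leukaemia cell line. PMA, a phorbol ester that makes THP-1 cells stop dividing, adhere and take on macrophage features, was given at 100 ng/ml over 48 h to cells in the bottom compartment of Transwell wells, whose porous membrane lets soluble factors pass. The melittin group (3 libraries) then had tumour cells above the membrane and melittin, the main membrane-active peptide of bee venom, at 3 µg/ml for 48 h. The other group is labelled NC (3 libraries), an abbreviation the labels do not spell out. These conditions come from one description of the whole series, which does not separate the groups. What NC wells were given, and whether they too had PMA and tumour cells above the membrane, is not stated for them, so effects of melittin and of co-culture cannot be told apart. The series is about prostate cancer, but the tumour line is not named in the labels used here. Nothing says that the replicates are separate cultures, so p-values reflect only how these libraries vary, and that variation may be technical. The organism label reads mouse, but all 20036 identifiers were human and 0 were mouse.

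DNA replication begins in G1, when the origin recognition complex (ORC), CDC6 and CDT1 load the ring-shaped MCM2 to MCM7 helicase onto DNA. In S phase kinases and further factors, among them MCM10, CDC45 and the GINS complex, turn the loaded ring into the active helicase, after which polymerases alpha, epsilon and delta, the PCNA clamp and its loader RFC make the new strands. Transcription of many of these genes is driven by E2F factors and held down by RB proteins in resting cells, so in a differentiated macrophage most are low, while some, such as the RPA, RFC and polymerase delta genes, also serve DNA repair.

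Total counts were 16192032 to 19521897 in melittin and 16001423 to 19597781 in NC libraries. The 49 genes took 0.0679% to 0.0694% of the counts in melittin and 0.0912% to 0.0935% in NC libraries. Their summed level was 736.9 to 749.7 CPM in melittin libraries and 842.0 to 862.6 CPM in NC libraries, where CPM are counts per 1000000 reads after edgeR's TMM scaling of the library sizes. In these bulk samples fewer cells in S phase and less RNA per cell cannot be told apart.

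Markers of other cell types were read beside the replication genes, because the described co-culture held tumour cells. Of 15 prostate epithelial markers 3 were tested, and KLK2, TMPRSS2, KRT18, KRT19, KRT5 and EPCAM had 0 counts in every library. A count near 0 in this table is a weak sign of absence, since CD68, a standard macrophage marker, had 1 count over the 6 libraries. Of 14 tested macrophage markers 5 rose (35.7%) and 7 fell (50%), where 38.1% and 38.3% of all tested genes did. Their median log2 fold change was −0.30. Those that fell included CSF1R, at 235.1 ± 2.98 CPM in melittin and 722.2 ± 10.2 CPM in NC libraries (mean ± SD, n = 3 each, as throughout). The lineage factor SPI1 had 291.4 ± 6.92 and 281.9 ± 4.01 CPM (adjusted p = 0.11). MSR1 and CD163 fell further than CSF1R, by 2.81 and 2.95 on the log2 scale, while ITGAX and ITGAM rose by 0.90 and 1.31. Lymphocyte markers summed to 0.845 to 1.14 CPM in melittin and 0.347 to 0.787 CPM in NC libraries, and markers of granulocyte and erythroid precursors to 6.17 to 7.15 and 1.28 to 2.14 CPM. The part of these shifts in the results on replication genes was not tested.

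More replication genes fell than rose with melittin. FAM111B fell furthest, and among roles with more than 2 members helicase activation had the lowest median. Of 49 members 28 fell (57.1%) and 11 rose (22.4%) at an adjusted p under 0.05, and 10 did not pass. Over all 12029 tested genes 38.3% fell and 38.1% rose, so 76.4% were called in either direction, against 39 of the 49. The same shares of all genes are to be read beside each count by role below. The median log2 fold change of the members was −0.45, against −0.007 over all tested genes. A fall of at least 2-fold was seen in 12 members, against 9.96% of all tested genes, and a rise of that size in 2 members, POLD1 and LIG1, against 9.53%. The 3 melittin values lay below all 3 NC values in 29 members and above them in 11, where 39.1% and 38.3% of all tested genes showed this. The test was edgeR's quasi-likelihood test on read counts with Benjamini-Hochberg adjustment over all tested genes. When libraries were scaled only by total count the median of all genes moved to −0.24 and the split of all calls to 3159 higher and 6244 lower, and 5 members rose and 32 fell.

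**Figure D1:**
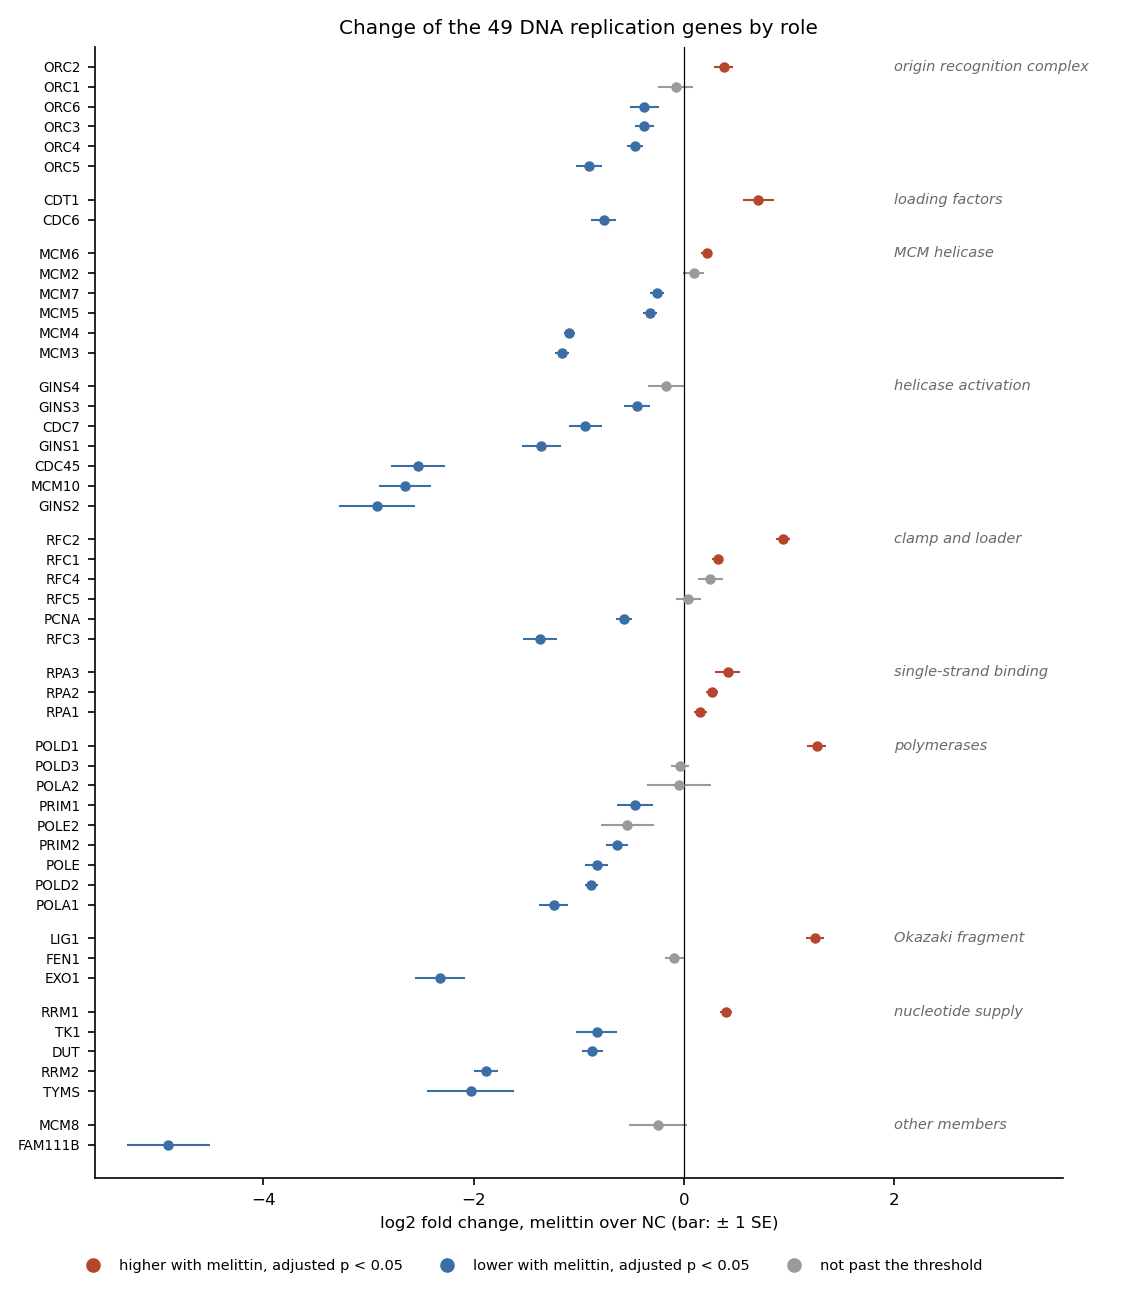
Log2 fold change of each of the 49 replication genes (melittin over NC, horizontal axis), grouped by role, with bars of 1 SE. Red points passed as higher, blue as lower and grey did not pass at an adjusted p of 0.05. The 7 helicase activation genes all lie left of 0, and FAM111B lies furthest left at −4.90.

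The origin recognition complex, the 6-subunit ATPase that marks origins, shifted modestly and not as a unit: 4 of 6 subunit genes fell, 1 rose and 1 did not pass (median −0.38). ORC5 fell furthest, with 7.48, 7.01 and 7.98 CPM in melittin against 11.3, 15.0 and 15.8 CPM in NC libraries. Its groups did not overlap, and the log2 fold change was −0.91 (SE 0.123, adjusted p = 2.12e-07). ORC4, with the most reads of the 6, had 23.0, 25.4 and 20.6 CPM in melittin and 31.0, 32.4 and 32.4 CPM in NC libraries. ORC4 shares 431 bases with ACVR2A and 594 with MBD5 on the opposite strand, so reads there are uncertain. ACVR2A had 5508 reads over the 6 libraries against 2995 for ORC4 and fell by 1.54 on the log2 scale, while MBD5 had a log2 fold change of 0.005. ORC3 and ORC6 fell by 0.38 each on the log2 scale, and the ORC6 call ended without NC replicate 1 (adjusted p = 0.0825). ORC2 went the other way, with 18.2, 19.1 and 18.3 CPM in melittin and 13.4, 15.8 and 13.6 CPM in NC libraries, and its rise of 0.38 on the log2 scale (SE 0.0888) was not called under scaling by total counts only (0.14, adjusted p = 0.139 there). ORC1, the subunit whose level follows the cell cycle, had overlapping groups (5.03 ± 0.888 CPM in melittin and 5.28 ± 1.08 CPM in NC libraries, adjusted p = 0.665).

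The 2 loading factors moved in opposite directions. CDC6, the ATPase that joins ORC to recruit the helicase, had 7.74, 5.90 and 8.45 CPM in melittin against 12.8, 12.7 and 11.6 CPM in NC libraries, or −0.76 as log2 fold change (SE 0.12, adjusted p = 2.19e-06). CDT1, which brings the MCM ring to ORC and CDC6 and is destroyed once S phase starts, had 5.85, 6.40 and 6.70 CPM in melittin against 3.59, 4.14 and 3.87 CPM in NC libraries, or 0.71 as log2 fold change (SE 0.148, adjusted p = 0.000113). In both genes every melittin library lay on one side of every NC library. GMNN, the inhibitor geminin that binds CDT1, had 5.33 ± 0.905 CPM in melittin and 4.55 ± 0.984 CPM in NC libraries and did not pass (adjusted p = 0.202).

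Within the MCM2 to MCM7 ring, MCM3 and MCM4 fell more than 2-fold, while the other subunits lay closer to their NC level. MCM3 (chromosome 6, 52264014 to 52284881, minus strand, GRCh38) had 22.6, 21.2 and 21.9 CPM in melittin against 49.9, 50.8 and 45.4 CPM in NC libraries, 2.24-fold lower (SE of the log2 value 0.0639, adjusted p = 2.35e-15). MCM4, with the most reads of the ring, had 32.8, 35.0 and 34.5 CPM in melittin against 69.1, 74.1 and 74.6 CPM in NC libraries, 2.13-fold lower. The groups of both genes stood far apart. MCM5 and MCM7 fell by 0.32 and 0.26 on the log2 scale. MCM6 had 51.1, 46.9 and 49.9 CPM in melittin and 41.7, 43.4 and 42.1 CPM in NC libraries, a rise of 0.21, no longer called under scaling by total counts only (−0.0164, adjusted p = 0.787). MCM2 did not pass (12.05 ± 0.246 CPM in melittin and 11.3 ± 1.06 CPM in NC libraries).

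Per length, on the authors' FPKM scale, the ring genes were unequal in both groups. Their mean FPKM ran from 2.36 (MCM2) to 11 (MCM6) in melittin and from 2.60 (MCM2) to 14.5 (MCM3) in NC libraries, so MCM3 held the top place in NC and MCM6 in melittin libraries. The ratio of MCM6 to MCM3 within a library, which does not depend on library scaling, was 1.99, 1.96 and 2.01 in melittin and 0.736, 0.754 and 0.816 in NC libraries. This pair, like the other gene pairs given as ratios, was chosen for unlike changes already seen, either opposite in direction or unlike in size. Its ratio is thus a description with no test.

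**Figure D2:**
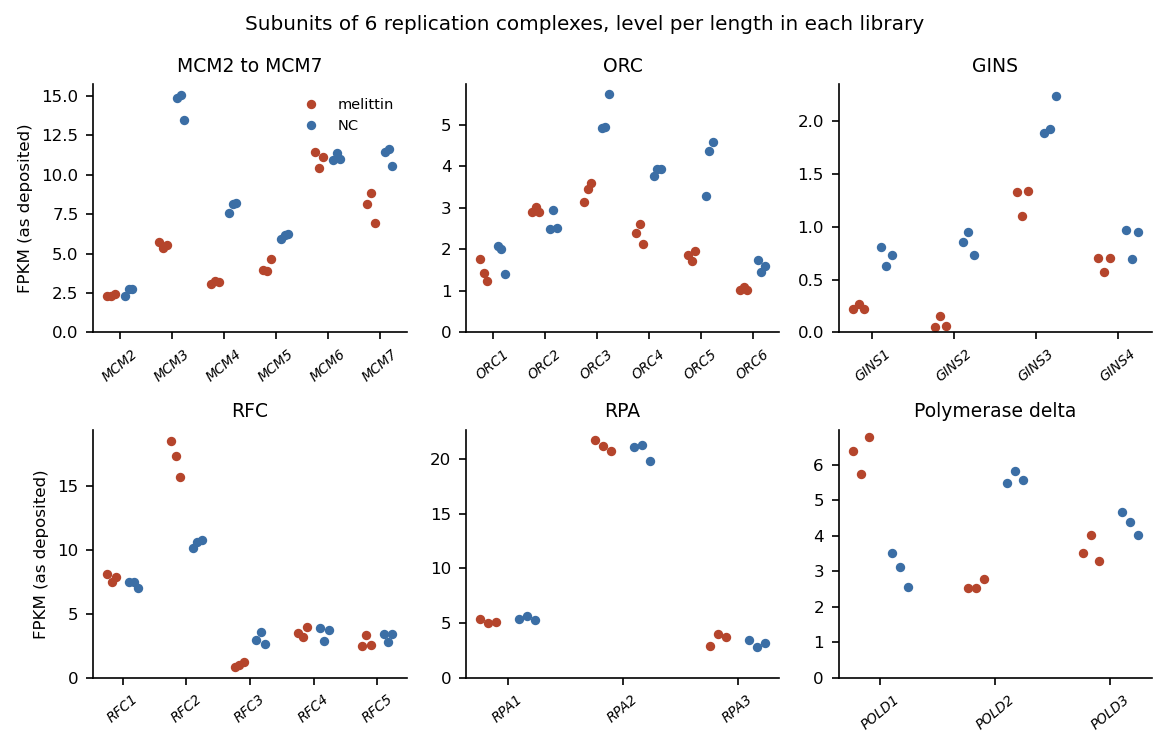
FPKM as deposited (vertical axis) of the subunits of 6 replication complexes in each melittin (red, left) and NC (blue, right) library. MCM3 and MCM4 stand lower in melittin libraries while MCM6 overlaps, RFC2 stands higher and RFC3 lower, and POLD1 and POLD2 change places.

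Genes that activate the loaded helicase had the lowest median of the roles with more than 2 members: 6 of 7 fell, 0 rose and 1 did not pass, with a median log2 fold change of −1.36. GINS2 (chromosome 16, 85676198 to 85690073, minus strand), a subunit of the 4-part GINS complex, had 0.195, 0.557 and 0.201 CPM in melittin against 2.56, 2.83 and 2.20 CPM in NC libraries. This is a low transcript, with 3, 10 and 3 reads in melittin and 52, 60 and 38 reads in NC libraries, and the log2 fold change was −2.92 (SE 0.361, adjusted p = 4.05e-08). It moved to −3.64 without melittin replicate 2, which holds 10 of the 16 melittin reads. From the summed counts GINS2 was 7.69-fold lower, with an exact 95% interval of 4.58 to 13.8 that covers counting error only. MCM10, which helps the ring to open and start, had 1.04, 0.557 and 0.603 CPM in melittin against 4.92, 4.57 and 4.28 CPM in NC libraries. CDC45, the partner of the MCM ring and GINS in the active helicase, had 0.520, 0.668 and 0.871 CPM in melittin against 3.69, 3.91 and 4.39 CPM in NC libraries. In each of these 3 genes the highest melittin value lay far below the lowest NC value. Summed counts put MCM10 6.35-fold lower (4.45 to 9.31) and CDC45 5.81-fold lower (4.03 to 8.65).

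The remaining activation genes fell less. GINS1 fell by 1.36 on the log2 scale (SE 0.187), and CDC7, the kinase that phosphorylates the MCM ring, by 0.94 (SE 0.16). GINS3, with the most reads of the 7, had 7.35, 6.12 and 7.44 CPM in melittin against 8.91, 9.09 and 10.6 CPM in NC libraries, a fall by 0.45. GINS4 had overlapping groups (adjusted p = 0.393) and was called lower under scaling by total counts only (−0.40, adjusted p = 0.042). Among the GINS subunits the per-length level ran from 0.0909 (GINS2) to 1.26 FPKM (GINS3) in melittin and from 0.725 (GINS1) to 2.02 FPKM (GINS3) in NC libraries, a spread of 13.8-fold and 2.79-fold. DBF4, the activating subunit of the CDC7 kinase and no member of the 49, rose to 38.5 ± 2.29 CPM in melittin against 26.8 ± 1.46 CPM in NC libraries, while CDC7 fell.

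Genes of the sliding clamp and its loader went both ways, with 2 of 6 higher, 2 lower and 2 that did not pass (median 0.15), shares close to the 38.1% higher and 38.3% lower of all tested genes. PCNA, the clamp that tethers polymerases to DNA, had 16, 17.8 and 17.5 CPM in melittin against 24.3, 25.3 and 26.8 CPM in NC libraries, a fall by 0.57 on the log2 scale (SE 0.0779, adjusted p = 2.18e-07). RFC3, a small subunit of the loader, had 2.67, 3.06 and 3.75 CPM in melittin against 7.82, 9.47 and 6.99 CPM in NC libraries, 2.58-fold lower. RFC2, another small subunit, had 44.3, 41.7 and 37.7 CPM in melittin against 20.8, 21.7 and 22.1 CPM in NC libraries, 1.92-fold higher (adjusted p = 1.1e-12). RFC1, the large subunit, had 59.2, 54.7 and 57.4 CPM in melittin and 46.7, 46.3 and 43.7 CPM in NC libraries, a rise of 0.32 that was not called under scaling by total counts only (0.09, adjusted p = 0.114). RFC4 and RFC5 had log2 fold changes of 0.25 (adjusted p = 0.0586) and 0.04 (adjusted p = 0.764). RFC4 passed without melittin replicate 2 or NC replicate 1 (adjusted p = 0.0256 and 0.0315). The loader's genes thus spread further apart per length, from 1.02 (RFC3) to 17.2 FPKM (RFC2) in melittin and from 3.07 (RFC3) to 10.6 FPKM (RFC2) in NC libraries. RFC4 lies opposite EIF4A2 and shares 18 bases with it, and RFC5 lies opposite WSB2 and shares 444 bases. EIF4A2 had 37166 reads over the 6 libraries against 1126 for RFC4, and WSB2 12956 against 1054 for RFC5. Since the strand setting of the counting is not given, reads in the shared stretches cannot be assigned with certainty.

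All 3 genes of RPA, the protein that coats single-stranded DNA in replication and repair, were higher with melittin, by small amounts. RPA2, with the most reads, had 46.4, 45.6 and 44.6 CPM in melittin against 38.5, 38.9 and 36.2 CPM in NC libraries (log2 fold change 0.26, SE 0.0548). RPA3 had 10.2, 14.0 and 13.1 CPM in melittin against 10.2, 8.34 and 9.59 CPM in NC libraries (0.42, SE 0.118), and RPA1 rose by 0.16, a call that ended without melittin replicate 1 or 3 or NC replicate 1 or 3 (adjusted p = 0.0511 to 0.11). None of these 3 calls held under scaling by total counts only, where RPA1, RPA2 and RPA3 had log2 fold changes of −0.0759, 0.0333 and 0.18, against −0.24 for the median gene. RPA2 also turned to −0.0193 (adjusted p = 0.755) once the trend on gene length was taken out, and RPA3 overlaps UMAD1 on the opposite strand over 77897 bases.

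Of the 9 polymerase and primase genes 5 fell, 1 rose and 3 did not pass (median −0.54). POLA1, the catalytic subunit of polymerase alpha, which starts each new strand, had 4.62, 3.62 and 4.22 CPM in melittin against 9.74, 10.6 and 8.84 CPM in NC libraries, 2.36-fold lower (adjusted p = 4.82e-09). The primase genes PRIM1 and PRIM2, which make the RNA primer for it, fell by 0.47 and 0.64 on the log2 scale. POLE, the catalytic subunit of the leading strand polymerase epsilon, fell by 0.83, to 8.86 ± 1.07 CPM in melittin against 15.7 ± 1.06 CPM in NC libraries. Its partner POLE2 had groups that did not overlap and did not pass (−0.54, adjusted p = 0.0557), while it was called lower under 6 of the 19 alternatives, among them scaling by total counts only (−0.77, adjusted p = 0.00743) and removal of the length trend (−0.69, adjusted p = 0.0158). The groups of POLA2 and POLD3 overlapped (−0.05 and −0.04). POLD3 was called lower under scaling by total counts only (−0.27, adjusted p = 0.00438), where the median gene had −0.24. PRIM1 shares 333 bases with NACA on the same strand, a gene with 27022 reads over the 6 libraries against 395 for PRIM1, and POLA2 shares 43662 bases with an unnamed gene of the same strand. The PRIM1 call ended without NC replicate 2 (adjusted p = 0.0567).

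Polymerase delta, which makes the lagging strand and fills gaps in repair, had its subunit genes moving in opposite directions. POLD1, the catalytic subunit (chromosome 19, 50384204 to 50418018, plus strand), had 34.1, 30.7 and 36.3 CPM in melittin against 15.9, 14.2 and 11.6 CPM in NC libraries. This was the largest rise among the 49, 2.40-fold (log2 SE 0.0904, adjusted p = 7.64e-13). POLD2, the subunit that joins it to the rest of the enzyme, had 21.8, 22.0 and 24.1 CPM in melittin against 40.6, 43.0 and 41.3 CPM in NC libraries, 1.84-fold lower. Neither pair of groups overlapped. Per length the order of the pair turned over: the ratio of POLD1 to POLD2 in FPKM was 2.54, 2.27 and 2.44 in melittin and 0.637, 0.537 and 0.457 in NC libraries. POLD4, the accessory subunit and no member of the 49, rose by 1.16 on the log2 scale from a low level (4.20 ± 0.391 CPM in melittin and 1.87 ± 0.379 CPM in NC libraries).

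**Figure D3:**
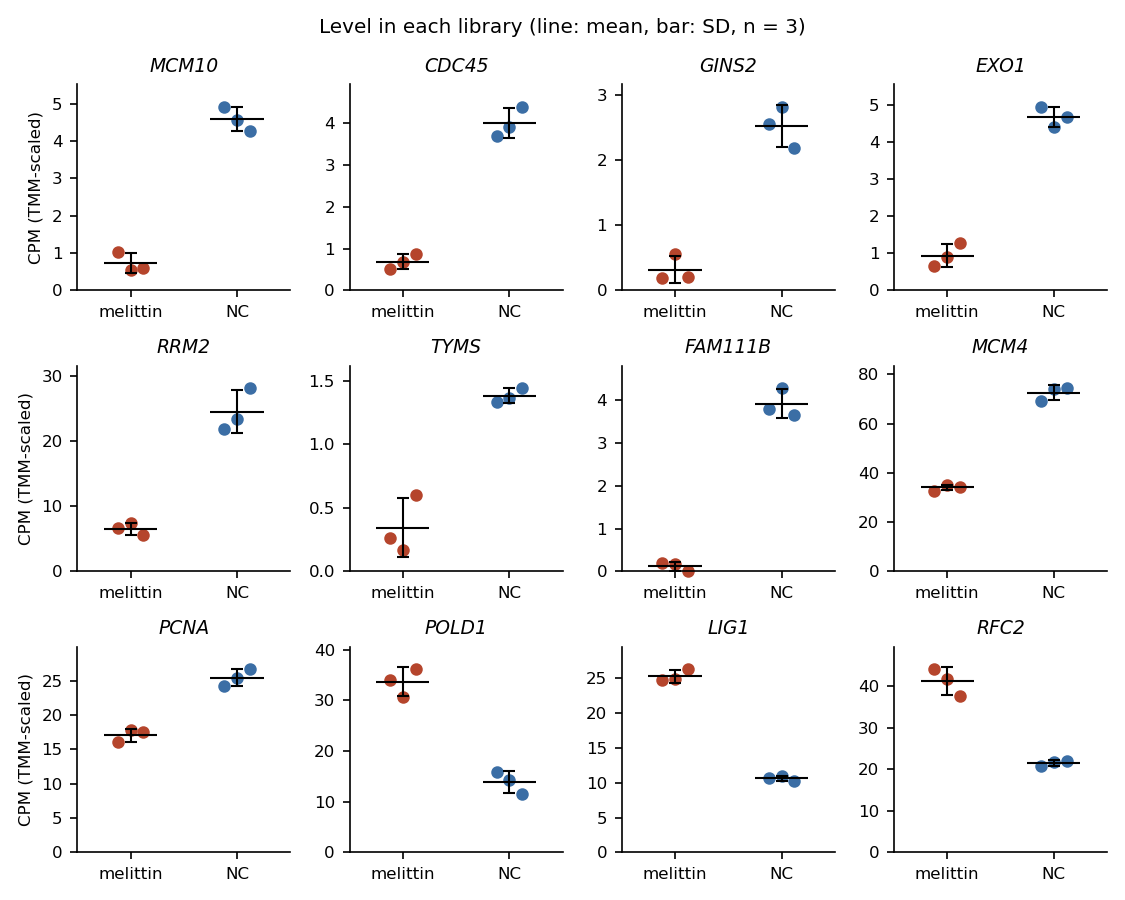
CPM after TMM scaling (vertical axis, from 0) of 12 replication genes in each melittin (left) and NC (right) library, with the mean and SD of 3 libraries. The 12 were chosen with their values known, and in none of them do the groups overlap. Of all tested genes 77.4% had groups that did not overlap. Of the 12, 9 are lower and POLD1, LIG1 and RFC2 are higher in melittin libraries.

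Of the genes that finish Okazaki fragments, the short pieces of the lagging strand, LIG1 rose and FEN1 did not pass. EXO1, grouped with them here, fell. LIG1 (chromosome 19, 48115445 to 48170603, minus strand), the ligase that joins the pieces, had 24.6, 24.8 and 26.3 CPM in melittin against 10.7, 10.97 and 10.3 CPM in NC libraries, 2.37-fold higher (log2 SE 0.0835, adjusted p = 1.88e-13). EXO1, an exonuclease of mismatch repair and end resection, had 0.650, 0.891 and 1.27 CPM in melittin against 4.97, 4.43 and 4.68 CPM in NC libraries. Its summed counts were 45 in melittin and 276 in NC libraries, 5.03-fold lower (exact 95% interval 3.66 to 7.06). FEN1, the nuclease that trims the flap, had the most reads of the 3, with 23.3, 19.9 and 16.8 CPM in melittin and 19.9, 22.5 and 21.7 CPM in NC libraries, and its groups overlapped (adjusted p = 0.366). FEN1 overlaps FADS2 on the same strand over 4259 bases, so its reads are uncertain. It passed as lower once the trend on gene length was taken out (−0.34, adjusted p = 0.00178), under scaling by total counts only (−0.32) and without melittin replicate 1 (−0.21).

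In nucleotide supply 4 of 5 genes fell and 1 rose (median −0.87). RRM2 (chromosome 2, 10120698 to 10211725, plus strand), the S-phase small subunit of ribonucleotide reductase, had 6.63, 7.46 and 5.63 CPM in melittin against 21.9, 23.4 and 28.2 CPM in NC libraries, 3.68-fold lower (log2 SE 0.113, adjusted p = 1.65e-14). RRM1, the large subunit of the same enzyme, had 50.1, 48.9 and 45.3 CPM in melittin against 35.9, 36.3 and 37.7 CPM in NC libraries, a rise of 0.40 on the log2 scale (SE 0.0561). The FPKM ratio of RRM1 to RRM2 was thus 16.3, 14.2 and 17.4 in melittin and 3.55, 3.36 and 2.89 in NC libraries. RRM2B, the small subunit used outside S phase and no member of the 49, fell by 0.26, and its FPKM ratio to RRM2 was 17.7 ± 2.25 in melittin and 5.69 ± 0.698 in NC libraries (SD, n = 3).

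TYMS, the enzyme that makes thymidylate, was read at 4, 3 and 9 counts in melittin and 27, 29 and 25 counts in NC libraries, or 0.260, 0.167 and 0.603 CPM in melittin and 1.33, 1.37 and 1.44 CPM in NC libraries. Its summed counts gave a 4.15-fold lower level in melittin, with an exact 95% interval of 2.41 to 7.61. The fitted log2 fold change was −2.03, and it moved to −2.67 without melittin replicate 3, which holds 9 of the 16 melittin reads. ENOSF1 overlaps TYMS on the opposite strand over 3261 bases and had 1620 counts over the 6 libraries against 97 for TYMS, so the TYMS count is uncertain. TK1, which salvages thymidine, and DUT, which removes dUTP, fell by 0.83 and 0.87 on the log2 scale. TK1 averaged 2.52 ± 0.304 CPM in melittin and 4.51 ± 0.822 CPM in NC libraries, and DUT 8.77 ± 0.671 and 16.02 ± 1.17 CPM.

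**Figure D4:**
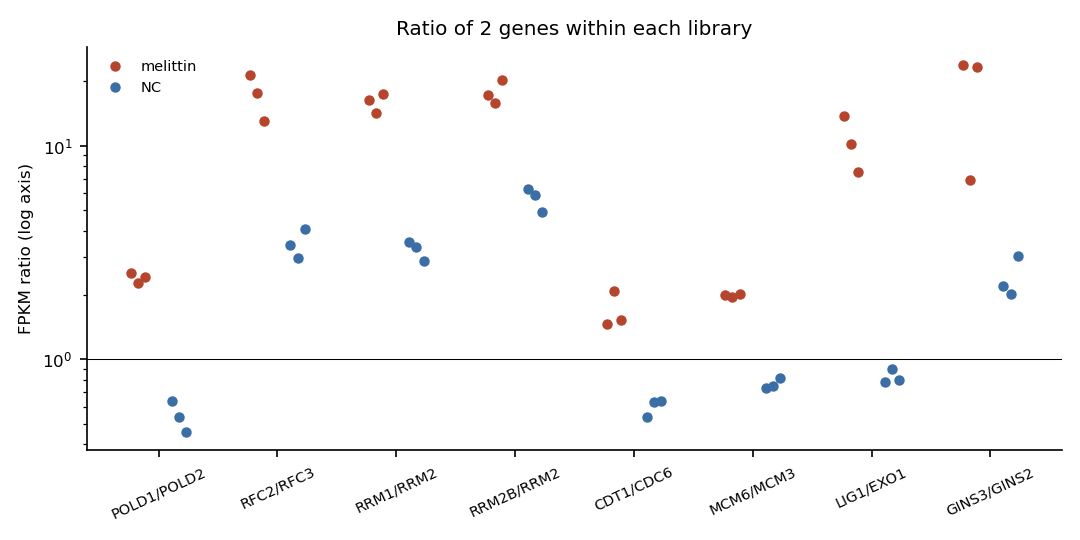
Ratio of the FPKM values of 2 genes within each library (vertical axis, log scale) for 8 pairs, with melittin libraries in red on the left and NC libraries in blue on the right. Every pair has its 3 melittin ratios above its 3 NC ratios; the pairs were chosen after the values had been seen.

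FAM111B (chromosome 11, 59107185 to 59127412, plus strand), a protease-domain gene whose transcript peaks with S phase, fell furthest of the 49. It had 0.195, 0.167 and 0 CPM in melittin against 3.79, 4.29 and 3.64 CPM in NC libraries, from 3, 3 and 0 reads in melittin and 77, 91 and 63 reads in NC libraries. The 0 of melittin replicate 3 allows up to 0.201 CPM, the level of 3 counts. The log2 fold change was −4.90 (SE 0.394, adjusted p = 8.63e-12). Summed counts of 6 in melittin and 231 in NC libraries gave a 31.6-fold lower level with a wide exact 95% interval, 14.3 to 86.9. MCM8, a helicase of recombination repair that is no part of the MCM2 to MCM7 ring, overlapped between groups (1.49 ± 0.234 CPM in melittin and 1.76 ± 0.39 CPM in NC libraries, adjusted p = 0.414).

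Further replication factors outside the 49 also fell more often than they rose: of 37 listed 35 were tested, 25 fell (71.4%), 3 rose (8.57%) and 7 did not pass. Over all tested genes 38.3% fell and 38.1% rose. The median log2 fold change of the list was −0.54. Among them SAMHD1, the enzyme that breaks down dNTPs, fell to 29.4 ± 0.944 CPM in melittin against 160.0 ± 5.01 CPM in NC libraries. DNMT1, the maintenance DNA methyltransferase, fell by 0.58 on the log2 scale, and MCM9, a helicase of recombination repair, to 14.85 ± 0.783 against 29.84 ± 0.72 CPM. DBF4, DONSON and POLD4 were the 3 that rose. RNASEH2A (2 reads over the 6 libraries) and CHTF8 were too low to test.

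In the replication stress checkpoint 9 of 13 genes fell (69.2%) and 2 rose (15.4%), against 38.3% and 38.1% of all tested genes (median −0.56). CLSPN, the adaptor through which ATR activates CHEK1, had 1.48 ± 0.446 CPM in melittin and 7.46 ± 0.355 CPM in NC libraries, and TOPBP1, ATR and WEE1 fell by 0.56, 0.75 and 0.62 on the log2 scale. The 3 subunit genes of the checkpoint clamp went both ways: RAD1 and RAD9A rose by 0.31 and 0.39, and HUS1 fell by 0.38, to 53.5 ± 0.52 against 69.7 ± 2.98 CPM. The 13 genes hold CLSPN, TIMELESS, TIPIN and TOPBP1 in common with the further replication factors.

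Genes of E2F and RB control divided almost evenly, with 12 higher, 14 lower and 2 that did not pass of 28 tested (median −0.17). These are 42.9% higher and 50% lower, against 38.1% and 38.3% of all tested genes. CDKN1A, the inhibitor p21 of S-phase kinases and of PCNA, rose to 1774 ± 57.1 CPM in melittin against 1058 ± 9.95 CPM in NC libraries, and E2F7, an atypical E2F that represses E2F targets, to 115.1 ± 1.25 against 51.9 ± 2.51 CPM. E2F8, the other atypical E2F repressor, fell to 0.192 ± 0.124 CPM in melittin against 2.24 ± 0.166 CPM in NC libraries. CDK6 fell to 298.0 ± 8.61 CPM in melittin against 556.9 ± 13.8 CPM in NC libraries and RB1 by 0.66 on the log2 scale. The activators E2F1 and E2F2 also fell, E2F1 to 3.40 ± 0.862 against 6.41 ± 0.125 CPM and E2F2 to 0.103 ± 0.0352 against 1.63 ± 0.498 CPM. CDK2 rose to 37.3 ± 2.24 CPM in melittin against 18.6 ± 0.686 CPM in NC libraries, and CCND2 to 8.59 ± 0.285 against 0.370 ± 0.0772 CPM. E2F1, E2F2, E2F8, CDK2 and CCND2 were named after their values were seen.

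Mitosis genes, expressed later in the cycle than the 49, had 22 lower, 4 higher and 2 that did not pass of 28 tested, with a median of −1.12. That is 78.6% lower and 14.3% higher, against 38.3% and 38.1% of all tested genes. MKI67, the Ki-67 proliferation marker, fell to 3.87 ± 0.665 CPM in melittin against 15.2 ± 0.527 CPM in NC libraries and CDC20 to 3.29 ± 0.376 against 14.6 ± 0.702 CPM. ESPL1, the protease separase, and PTTG1, its inhibitor securin, rose by 2.16 and 1.27 on the log2 scale. These lists share the 6 libraries with the 49 genes, and no difference between lists was tested.

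**Figure D5:**
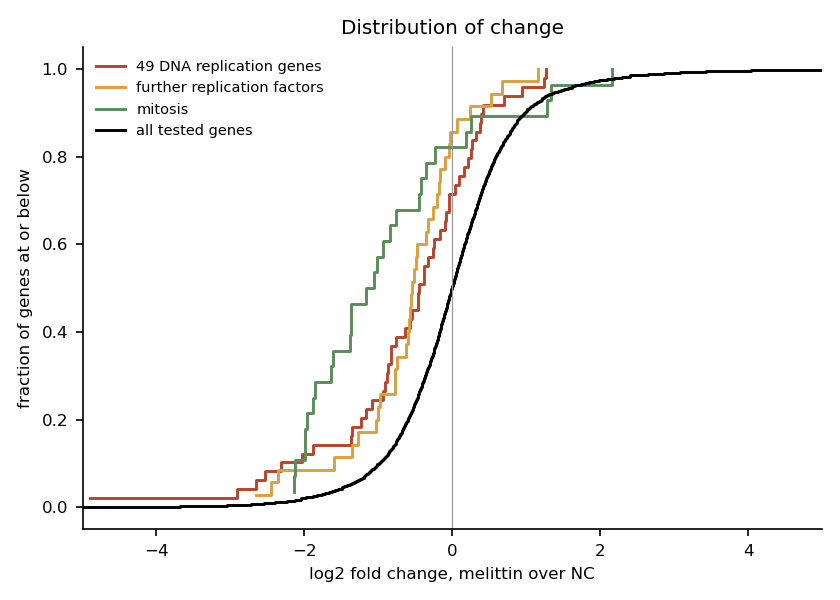
Fraction of genes (vertical axis) at or below each log2 fold change (melittin over NC, horizontal axis) for the 49 replication genes, the further replication factors, the mitosis list and all 12029 tested genes. The curve of the 49 lies left of that of all genes, with medians of −0.45 and −0.007; the mitosis curve has its median at −1.12.

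Gene length and overlap with other genes were read beside the changes. Across the 49 the Spearman correlation of log2 fold change and gene length was −0.03, while across all 12029 tested genes it was −0.18; genes are not independent replicates, and all values share the same 6 libraries. The median length was 4233 bases in the 49 and 5540 bases in all tested genes. In the 49, 35 overlapped no other gene of the table, 10 overlapped one on the opposite strand and 5 one on the same strand, PRIM1 being in both counts.

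Most falls kept their call across the 19 alternatives. In 26 of the 28 genes that fell, the call held in every alternative other than a test against a fold change of 1.5, and ORC6 and PRIM1 were the exceptions. Of the 11 that rose it held in 5, namely CDT1, RFC2, POLD1, LIG1 and RRM1. Against a fold change of 1.5, 17 members were lower, among them all 12 with a fall of at least 2-fold, and 3 were higher, RFC2, POLD1 and LIG1.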

How the data were processed

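Per the labels' protocols, a chloroform method gave total RNA, from which a NEBNext Ultra II kit made the libraries. GRCh38 is the build named in the submitters' processing notes. The sources used here give no aligner, counting program, strand setting or annotation version. The authors deposited raw read counts per gene and FPKM values, which equal the count divided by gene length and by the library's total count within a relative deviation of 2.2e-09. A second deposited table holds the same FPKM values.

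The counts went into edgeR 4.0.16 (R 4.3.3) with filterByExpr (12029 of 20036 genes), TMM factors (0.921 to 0.926 in melittin and 1.08 in NC libraries), and the quasi-likelihood test, two-sided, adjusted after Benjamini and Hochberg over all tested genes (threshold 0.05). Values are TMM-scaled CPM with the SD over 3 libraries. SE was derived from the test, as the size of the log2 fold change over the root of its F statistic. A single count was 0.0557 to 0.067 CPM in melittin and 0.0471 to 0.0578 CPM in NC libraries. Intervals of summed counts are exact binomial at 95%. Levels are compared between genes only in FPKM.

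The members, lists, roles and tests were chosen with earlier results of these data known. Per-library values are given for the member with the most reads and those with the largest rise and fall in each role, and for others named after their values were seen. Of the further lists up to 4 members with the smallest adjusted p were to be named; others were named after their values were seen.

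A chi-square test of each library pair (genes with 20 or more summed counts) gave, per degree of freedom, 2.23 to 3.92 among melittin, 1.73 to 1.76 among NC and 165 to 197 across groups. Each library was treated as 1 replicate, but these values cannot show whether the libraries come from separate cultures. The biological coefficient of variation was 3.01%. On simulated data with 200 of 12029 genes changed, the test recovered 79.1%, 94.0% and 100% of genes changed 1.5-fold, 2-fold and 4-fold, and 3.7% of its calls were false. In the data 9190 genes were called, far more than were changed in the simulation. These rates therefore cannot be carried over to the data. Alternatives used limma 3.58.1 and DESeq2 1.42.0. No sequences are shown, since the genome at hand was that of the mouse. Values of some listed genes outside the 49 are not reported here.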

Additional observations from a re-analysis of the deposited data

How the results depend on the processing

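Over 19 alternatives, 9 to 12 members rose and 26 to 30 fell except as follows. Under scaling by total counts only, 5 rose and 32 fell (median log2 fold change −0.68), and the same shift enters limma on log2(FPKM + 0.1), with 5 higher and 31 lower (median −0.64), and on log2(FPKM + 1), with 5 higher and 32 lower. Against a fold change of 1.5 there were 3 higher and 17 lower members, and 3495 genes called in all, against 9190. Leaving out each library in turn gave 10 to 12 higher and 27 to 29 lower members, medians of −0.48 to −0.38, and 8857 to 9147 genes called.

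The direction of 9 members turned round under some setting, and the cause was not tested. With total counts only, log2(FPKM + 0.1) and log2(FPKM + 1), the log2 fold changes were −0.138, −0.130 and −0.0970 for MCM2, −0.0164, −0.0142 and −0.0131 for MCM6, −0.19, −0.20 and −0.16 for RFC5, and −0.0759, −0.0715 and −0.0613 for RPA1. With the trend on gene length removed RFC5 had −0.0794 and RPA2 −0.0193, and with the replicate block added −0.0833 and −0.0176, while POLA2 had 0.000323. With a library left out, ORC1 ran from −0.23 to 0.0221, RFC5 from −0.12 to 0.12, POLA2 from −0.26 to 0.11, POLD3 from −0.14 to 0.0204 and FEN1 from −0.21 to 0.0118. Leaving out a library ended the calls of RPA1, ORC6 and PRIM1 and of no other member. DESeq2 gave 10 higher and 26 lower and lost ORC6, PRIM1 and RPA1.

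Libraries of the same number did not deviate together (correlations −0.0461, 0.0178 and −0.0191, against −0.0263 to 0.0434 for unlike numbers). With 3 libraries in each group that vary little, this cannot show whether same-numbered libraries shared a culture or a day. With the replicate block 12 members rose and 28 fell (median −0.45), 9050 genes were called, and RFC4 was called higher. Below about 1 CPM, as for GINS2, TYMS and FAM111B in melittin libraries, depth limits the size of a fold.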
